A study of Homo sapiens with 3 samples.

Results

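The genes described here encode the proteins of the cytosolic ribosome, read across 3 RNA-seq libraries of LNCaP, an established androgen-responsive human prostate cancer cell line. Members were the protein-coding rows on autosomes and the X chromosome named RPL or RPS with digits and at most an added A or X, together with RPLP0, RPLP1, RPLP2 and RPSA. The rule found 77 genes among the 58884 rows of the table, 46 of the large and 31 of the small subunit. All 77 averaged at least 50 raw counts per library, as did 12256 genes in all. Every library came from LNCaP cells kept in medium with 10% fetal bovine serum, plated for 24 h and then held for 72 h in a mix of 50% conditioned medium (CM) and fresh medium, with 2% serum. The CM was control-CM, PVAT-CM, which the labels mark as normal, or PPAT-CM, which they mark as tumor. PPAT stands for periprostatic adipose tissue. PVAT is used as the labels give it, and the sources used here do not give the tissue donors or the making of control-CM. There was 1 library per medium, so no difference below has a replicate check, no p-value was computed, and each comparison is between libraries.

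Each ribosome holds a single copy of nearly every one of these proteins, and the pairs of the P stalk are the known exception. The small subunit reads the mRNA and the large subunit joins amino acids and lets the chain out through the exit tunnel. Most ribosomal protein mRNAs start with a C followed by a run of pyrimidines, the 5′ terminal oligopyrimidine (TOP) tract, through which mTOR signalling and the binding protein LARP1 control their translation and stability. A library measures how much of each mRNA was present and says nothing of its translation.

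The start sites of 3 members with high and 3 with low ratios of PPAT-CM to control-CM are shown because a pyrimidine run led by a C lies at the start site of members at both ends of the ranking. Each window runs from 10 bases before to 20 bases from the RefSeq start site (build GRCh38.p14), and the capitals mark the run of pyrimidines led by a C, which begins at the start site itself in 5 of the 6 and downstream of it in RPL10A, which starts with an A and does not count as having the tract at its start.
RPL41, chr12:56116623-56116652, plus strand: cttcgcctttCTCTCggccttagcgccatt
RPL10A, chr6:35468391-35468420, plus strand: aagacatgctagtCTCTTTTCCggttagcg
RPS27, chr1:153990752-153990781, plus strand: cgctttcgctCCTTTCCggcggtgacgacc
RPL18, chr19:48619159-48619188, minus strand: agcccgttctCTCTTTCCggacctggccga
RPL22, chr1:6199576-6199605, minus strand: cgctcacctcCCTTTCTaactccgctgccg
RPL14, chr3:40457329-40457358, plus strand: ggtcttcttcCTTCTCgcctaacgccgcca

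RefSeq promoter windows, 250 bases before to 50 after the start, were matched by symbol for 62 of the 77 members. A C at the start site with at least 5 unbroken pyrimidines, counted from that base onward, was found in 42 of the 62 (67.7%). It was found in 4.04% of all 27305 promoters of the same length and 4.6% of the 15843 of protein-coding genes. The large and small subunits had it in 65.8% and 70.8% of their matched promoters. Among the 10 members with the highest ratio of PPAT-CM to control-CM, 5 of the 7 with a window had the tract at the start, and among the 10 with the lowest, 7 of 10 did. The letters CCGGAA, the core of ETS factor sites, were found on either strand in 53.2% of member promoters, 22.9% of protein-coding promoters and 17.6% of all promoters. ATGGCG, part of the YY1 site, was in 33.9%, 14.3% and 11% in the same order. GGGCGG, the GC box, was in 54.8%, 58.5% and 44.6%, so the members' share lay between the other two. CACGTG, the E-box of MYC and MAX, was in 4.84%, 8.88% and 7.43%. The motifs were searched separately, and a match describes letters, not binding.

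The libraries held 16534649 counts in control-CM, 14174241 in PVAT-CM, then 16965584 in PPAT-CM. Genes of the mitochondrial chromosome took 30.8%, 21.1% and 15.5% of them, so shares below are of nuclear-encoded counts and ratios are of counts scaled with TMM factors of 0.905, 1.01 and 1.1. Markers of luminal prostate cells were all measured, 9 of 9, with summed counts of 52899, 49931 and 47975. The 6 adipocyte markers summed to 13, 27 and 90 counts, nearly all from PLIN1, with ADIPOQ, LEP, FABP4 and LPL at 0 in every library. The 6 fibroblast markers summed to 783, 367 and 531, of which COL1A1 gave 718, 323 and 478, with COL1A2, DCN and PDGFRA at 0 in every library. Leukocyte markers summed to 11, 17 and 10 and endothelial markers to 27, 16 and 35.

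Ribosomal protein genes took 10.98% of nuclear-encoded counts in control-CM (95% interval 10.96 to 11), 12.87% in PVAT-CM (12.86 to 12.89), then 11.97% in PPAT-CM (11.95 to 11.99). Both adipose media thus had a larger share than control-CM, and PVAT-CM had the largest. In RNA from whole cultures, a change in the mix of cells and in the RNA of each cell cannot be told apart. Every value here is relative to the rest of its library. The large subunit took 7.556%, 8.742% and 7.957% of nuclear-encoded counts in control-CM, then PVAT-CM, then PPAT-CM, and the small subunit 3.424%, 4.133% and 4.014%. Within the family, the large subunit's part went from 68.81% in control-CM (68.73 to 68.9) to 67.9% in PVAT-CM (67.82 to 67.97), then 66.47% in PPAT-CM (66.4 to 66.54). The intervals are exact binomial (Clopper-Pearson) and here, as for ratios below, cover counting error only.

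**Figure D1:**
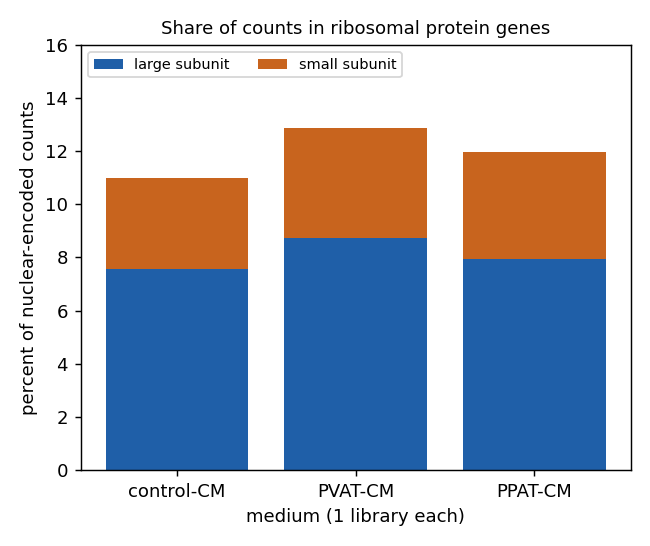
Percent of nuclear-encoded counts in the 46 large subunit genes (blue) and 31 small subunit genes (orange) in each medium, 1 library each. The stacked bar is highest in PVAT-CM, at 12.87%, and lowest in control-CM, at 10.98%.

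Levels of different members were compared per kilobase of the principal transcript, as TMM-scaled CPM, counts scaled to the library size. The median over the 77 members was 1055 in control-CM, 1223 in PVAT-CM, then 1213 in PPAT-CM. In control-CM the highest levels per kilobase were those of RPL29 at 3998, RPL19 at 3075 and RPS24 at 2922. The lowest were RPS10 at 6.85, RPL36A at 15.4 and RPL17 at 20.1, far under the control-CM lower quartile of 475. The highest level was 41.3 times the lowest in control-CM once the 5 genes that share most of their transcript with a neighbour, described next, were set aside. RPL29 led in PVAT-CM too, at 4449, whereas RPL13A led in PPAT-CM, at 3404. The scale depends on the length used: some principal transcripts carry a long annotated 3′ end, and per kilobase of coding sequence the top member in control-CM was RPL41, at 7606, with only 25 codons.

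Some low values belonged to genes with overlapping annotation. There were 5 members, among them RPS10, RPL36A, RPL17 and RPL26, that share over 50% of their transcript with another gene on the same strand, and RPS10, RPL36A and RPL17 were among the members with the lowest counts. RPS10 had 66, 58 and 75 counts in control-CM, then PVAT-CM, then PPAT-CM, RPL36A had 99, 123 and 211 and RPL17 had 201, 180 and 368. The rows of the readthrough genes RPS10-NUDT3, RPL36A-HNRNPH2 and RPL17-C18orf32 were at 0 in all 3 libraries. How reads that fit several genes were counted, and with which strand setting, is not stated, and levels and ratios of these genes are uncertain. The same holds where genes on the opposite strand overlap much of the transcript, as for RPL38 (57.8%), RPL10 (56.6%) and RPL30 (47.1%), and for members with many near-identical copies, led by RPL23A with 91 pseudogene rows, RPSA with 74, RPL21 with 66 and RPL7 with 61.

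In PPAT-CM against control-CM, 16 of the 77 members were at least 1.5-fold higher (20.8%, against 10.9% of all genes kept) and 1 was at least 1.5-fold lower (1.3%, against 9.96%). The higher ones included RPL41, RPL10A, RPL7, RPS27, RPL30, RPL23A, RPS12, RPS23, RPL36A, RPS29, RPS27A, RPL10, RPL13A, RPL27 and RPL3, and the lower one was RPL18. The family did not move as a block: its log2 ratios ran from -0.59 to 1.11, with a median of 0.19 and an SD over members of 0.40. All genes had a median of -0.01 and a wider SD of 0.60, so this spread is not particular to the family. The 95% counting interval of the ratio lay wholly above 1 for 49 members and wholly below 1 for 20, where 31.7% and 32.3% of all genes did so. Among the 2958 genes with a mean count of at least 1000, closer to the members in depth, 8.45% were at least 1.5-fold higher and 7.37% lower. The SD of their log2 ratios was 0.49, and the counting interval lay above 1 for 1132 of these genes and below 1 for 1277. Scaling by total counts alone, which moved the all-gene median to 0.27, gave 31 members higher and 0 lower, with 24.1% and 4.39% of all genes past the same fold. With mitochondrial genes left out of the scaling, the counts were 16 higher and 0 lower.

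**Figure D2:**
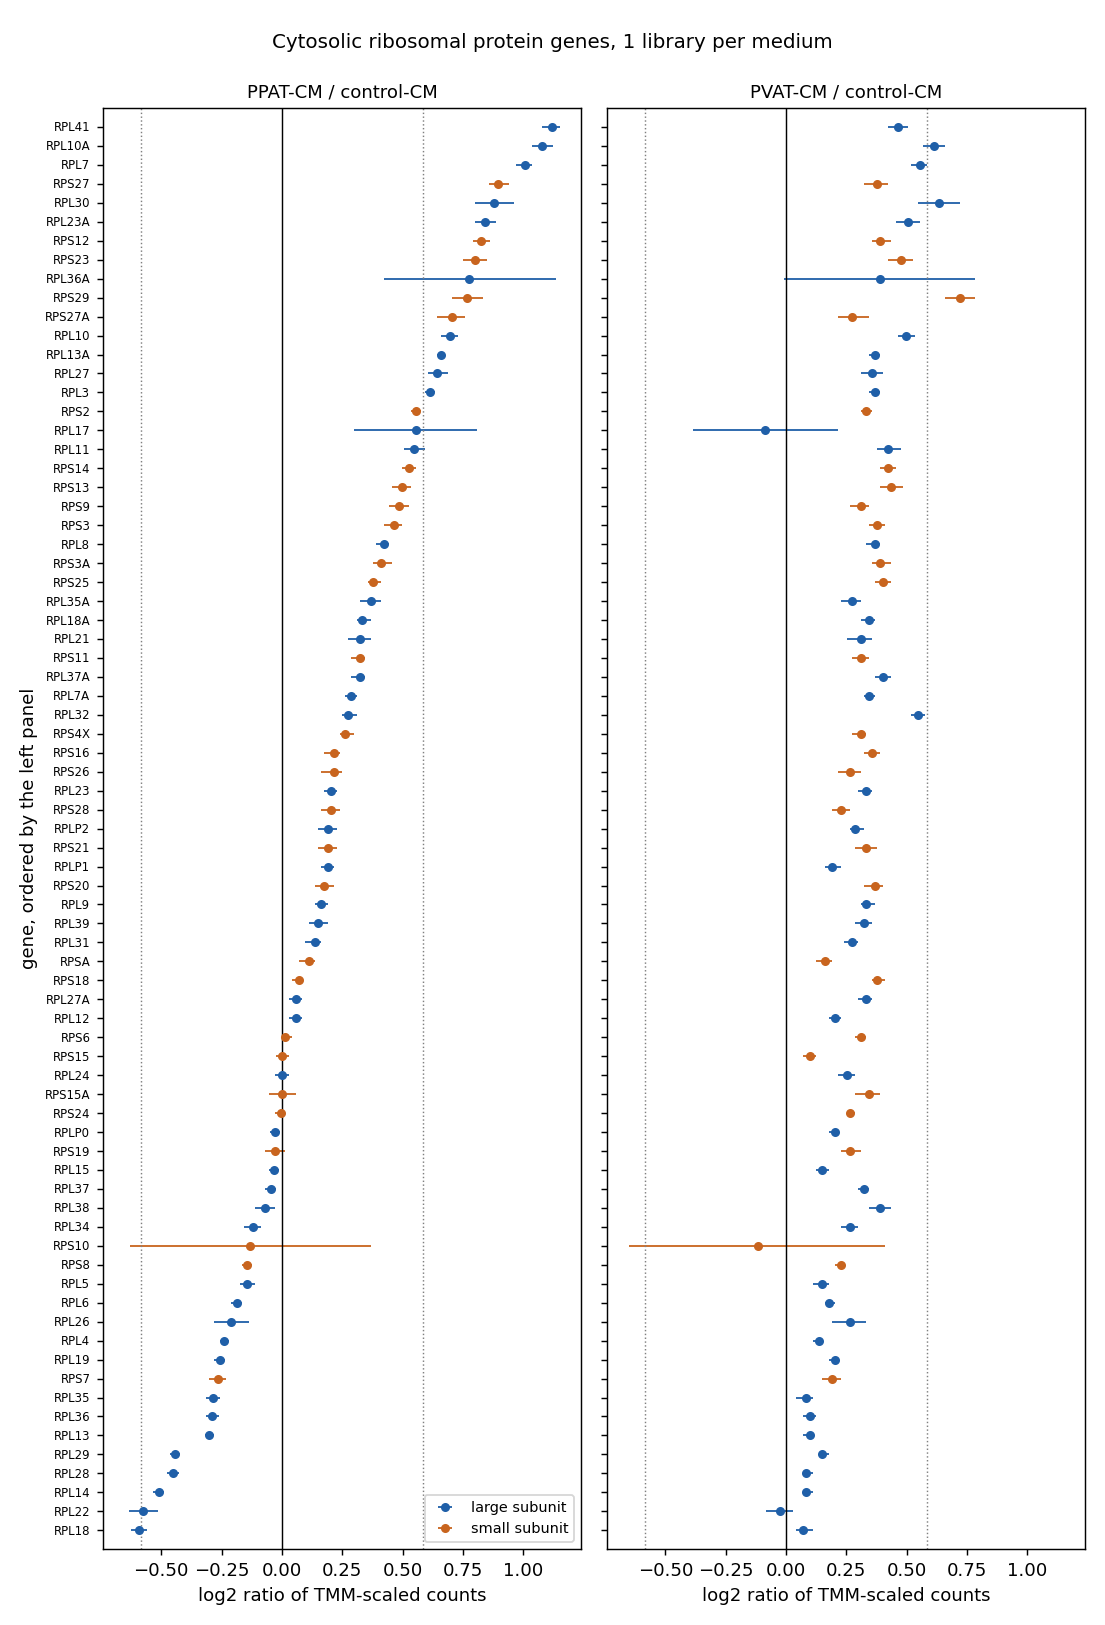
Log2 ratio of TMM-scaled counts for 75 of the 77 members in PPAT-CM (left) and PVAT-CM (right) over control-CM, ordered by the left panel, with 95% counting intervals, large subunit in blue and small in orange. Dotted lines mark 1.5-fold. Points on the left run from -0.59 to 1.11, and on the right most lie between 0 and 0.5.

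RPL41, a tiny basic peptide at the interface of the subunits (chr12:56116586-56117943, plus strand), had scaled levels of 570 CPM in control-CM, 789 in PVAT-CM, then 1235 in PPAT-CM. It was lowest in control-CM and highest in PPAT-CM, and the ratio of PPAT-CM to control-CM was 2.17 (2.11 to 2.22), the highest of the family. RPL10A, which forms the mobile L1 stalk where spent tRNA leaves (chr6:35468408-35470785, plus strand), had 411, 629 and 868 CPM. Its PPAT-CM level was 2.11-fold that of control-CM (2.05 to 2.18). RPL7, a large subunit protein that binds rRNA (chr8:73290267-73295789, minus strand), had 760, 1117 and 1526 CPM and a ratio of 2.01 (1.96 to 2.05). These 3 of the 77 members were the only ones at least 2-fold higher, a share close to the 3.57% of all genes. The interval of RPL7 includes 2, so its place past 2-fold is within counting error.

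RPS27, a zinc finger protein of the small subunit (chr1:153990755-153992155, plus strand), had 463, 600 and 863 CPM in control-CM, then PVAT-CM, then PPAT-CM. Its ratio of PPAT-CM to control-CM was 1.86 (1.81 to 1.92). RPL30, an RNA-binding protein of the large subunit, had 120, 187 and 222 CPM and a ratio of 1.84 (1.74 to 1.95). Both were lowest in control-CM and highest in PPAT-CM. RPS27A, made as a fusion to ubiquitin, was 1.63-fold higher in PPAT-CM than in control-CM (1.56 to 1.69). RPL13A, also known for binding certain inflammatory mRNAs once released from the ribosome, went from 2552 CPM in control-CM to 3295 in PVAT-CM, then 4020 in PPAT-CM, a ratio of 1.58 (1.56 to 1.59). RPL3, which lies beside the peptidyl transferase centre, was 1.53-fold higher (1.51 to 1.55).

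At the other end stood RPL18, a large subunit protein (chr19:48615328-48619536, minus strand), with 1097 CPM in control-CM, 1157 in PVAT-CM, then 728 in PPAT-CM. It was 1.51-fold lower in PPAT-CM than in control-CM (1.47 to 1.54), so its place beyond 1.5-fold is within counting error, and DESeq2 size factors brought the count of lower members to 0. RPL22, which the ribosome can replace by its paralogue RPL22L1 (chr1:6185020-6209389, minus strand), had 337, 331 and 226 CPM and was 1.49-fold lower (1.43 to 1.55). RPL14 (chr3:40457292-40468587, plus strand), a large subunit protein that bacteria lack, had 2341, 2486 and 1643 CPM and was 1.42-fold lower (1.4 to 1.45). All 3 were lowest in PPAT-CM, and their control-CM and PVAT-CM levels lay close together.

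RPL28 and RPL29, also proteins that bacterial ribosomes lack, were also lowest in PPAT-CM. RPL28 had 1829, 1947 and 1339 CPM and was 1.37-fold lower in PPAT-CM than in control-CM (1.34 to 1.39). RPL29, the member with the highest level per kilobase in control-CM, had 2891, 3216 and 2129 CPM and was 1.36-fold lower (1.34 to 1.38). Each of the 5 lowest members encodes a large subunit protein.

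**Figure D3:**
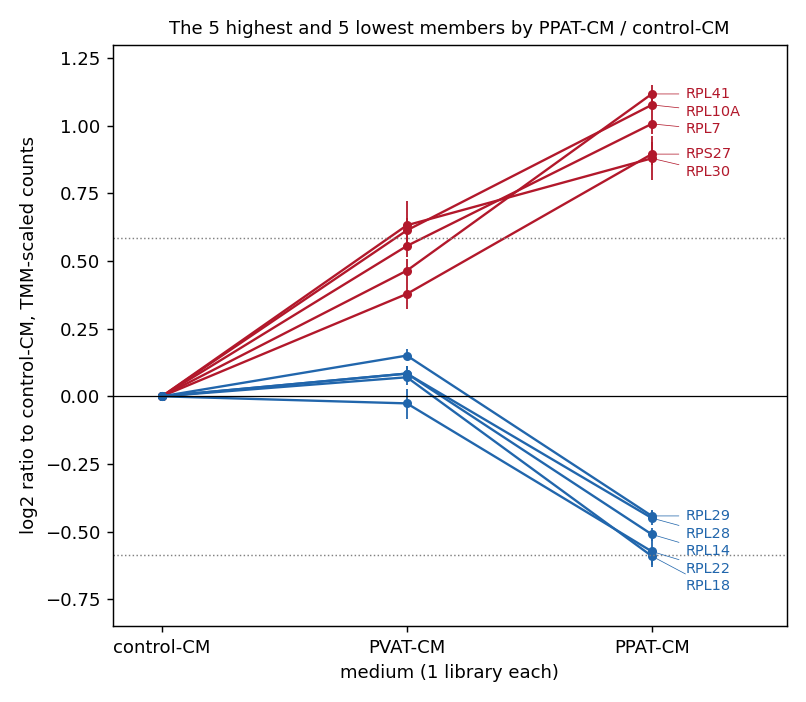
Log2 ratio to control-CM in each medium for the 5 members with the highest (red) and 5 with the lowest (blue) ratio of PPAT-CM to control-CM, with 95% counting intervals and dotted lines at 1.5-fold. The red lines are already above 0 in PVAT-CM, whereas the blue lines lie near 0 in PVAT-CM and below it in PPAT-CM.

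PVAT-CM differed from control-CM in a more even way. The median log2 ratio of the members was 0.31 (all genes 0.00) and their SD 0.18, and 73 of 77 ratios were above 1. The SD of all genes was also smaller here, 0.32 beside 0.60 in PPAT-CM against control-CM. The narrower spread is thus not particular to the family. The counting interval lay wholly above 1 for 72 members and wholly below for 1, beside 21.9% and 22.4% of all genes. These genes are deeply counted, which narrows the interval, and among the 2958 genes with a mean count of at least 1000 it lay above 1 for 1071. Few members passed the fold threshold: 3 were at least 1.5-fold higher (3.9%, near the 2.9% of all genes), and 0 were lower (3.85% of all genes). Scaled by total counts, 10 were higher and 0 lower, with 6.67% and 1.79% of all genes past that fold and an all-gene median of 0.15. PVAT-CM and PPAT-CM were both set against the same control-CM library, so the 2 sets of ratios share its error.

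RPS29, a zinc-binding protein of the small subunit head, had 219 CPM in control-CM, 362 in PVAT-CM, then 374 in PPAT-CM. The PVAT-CM level was 1.65-fold that of control-CM (1.58 to 1.72), the highest ratio of the comparison, and the levels in the adipose media lay close together, with a ratio of PPAT-CM to PVAT-CM of 1.03 (0.996 to 1.07). RPL30 followed at 1.55 (1.46 to 1.65), RPL10A at 1.53 (1.48 to 1.58), RPL7 at 1.47 (1.43 to 1.5) and RPL32, a large subunit protein, at 1.46 (1.43 to 1.49). RPL32 was highest in PVAT-CM, with 1005, 1469 and 1220 CPM. Low ratios of PVAT-CM to control-CM were 0.923 for RPS10 (0.637 to 1.33), 0.941 for RPL17 (0.765 to 1.16), 0.982 for RPL22 (0.943 to 1.02) and 1.05 for RPL18 (1.03 to 1.08). RPS10 and RPL17 are among the 5 genes with overlapping annotation. Without those 5 genes the lowest log2 ratio was -0.03 and the SD of the other 72 members was 0.14.

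Against PVAT-CM, the PPAT-CM library had a median log2 ratio of -0.08 over the members (all genes 0.00), with 3 members at least 1.5-fold higher (3.9%, against 8.06% of all genes) and 3 lower (3.9%, against 6.56%). The counting interval lay wholly above 1 for 25 members and below for 43, where 28.8% and 27.5% of all genes did. Among the 2958 genes with a mean count of at least 1000 it lay above 1 for 1007 and below for 1240. Scaled by total counts, the median turned to 0.04 beside an all-gene median of 0.13, and 5 members were higher and 0 lower, where 12% and 4.18% of all genes were. RPL41 was 1.57-fold higher in PPAT-CM than in PVAT-CM (1.53 to 1.6), and RPL17 was 1.56-fold higher (1.3 to 1.88), on the small counts given above. RPS27 was at 1.44 (1.4 to 1.48) and RPL10A at 1.38 (1.34 to 1.42). On the lower side, RPL18 was 1.59-fold lower (1.55 to 1.63), RPL14 1.51-fold (1.49 to 1.54), RPL29 1.51-fold (1.49 to 1.53), RPL22 1.46-fold (1.4 to 1.52) and RPL28 1.45-fold (1.43 to 1.48). By scaled level, 46 members were highest in PVAT-CM, 27 went up from control-CM through PVAT-CM to PPAT-CM, 2 (RPL22 and RPS10) went down in that order and 2 were lowest in PVAT-CM. These orders were not counted over all genes, so whether they set the members apart is not known.

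In PPAT-CM against control-CM the large subunit had a median log2 ratio of 0.16 and the small subunit 0.21, a difference of -0.06, and the means of 0.18 and 0.30 lay further apart, by -0.12. The SDs over members were 0.45 for the large and 0.31 for the small subunit. Of the 46 large subunit genes 10 were at least 1.5-fold higher (21.7%) and 1 lower (2.17%), and of the 31 small subunit genes 6 were higher (19.4%) and 0 lower, where 10.9% and 9.96% of all genes were. The counting interval lay above 1 for 27 large and 22 small subunit genes and below 1 for 18 and 2, where 31.7% and 32.3% of all genes did. Depth narrows the interval, and among the 2958 genes with a mean count of at least 1000 it lay above 1 for 1132 and below for 1277. In PVAT-CM against control-CM the medians were 0.30 and 0.33, and here the small subunit had the larger SD, 0.21 against 0.16. In PPAT-CM against PVAT-CM the medians were -0.16 and -0.02, a difference of -0.14. There the interval lay below 1 for 29 of 46 large and 14 of 31 small subunit genes. It did so for 27.5% of all genes and for 1240 of the 2958 deeply counted genes. Whether any of these differences exceeds the spread between cultures cannot be known from single libraries.

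**Figure D4:**
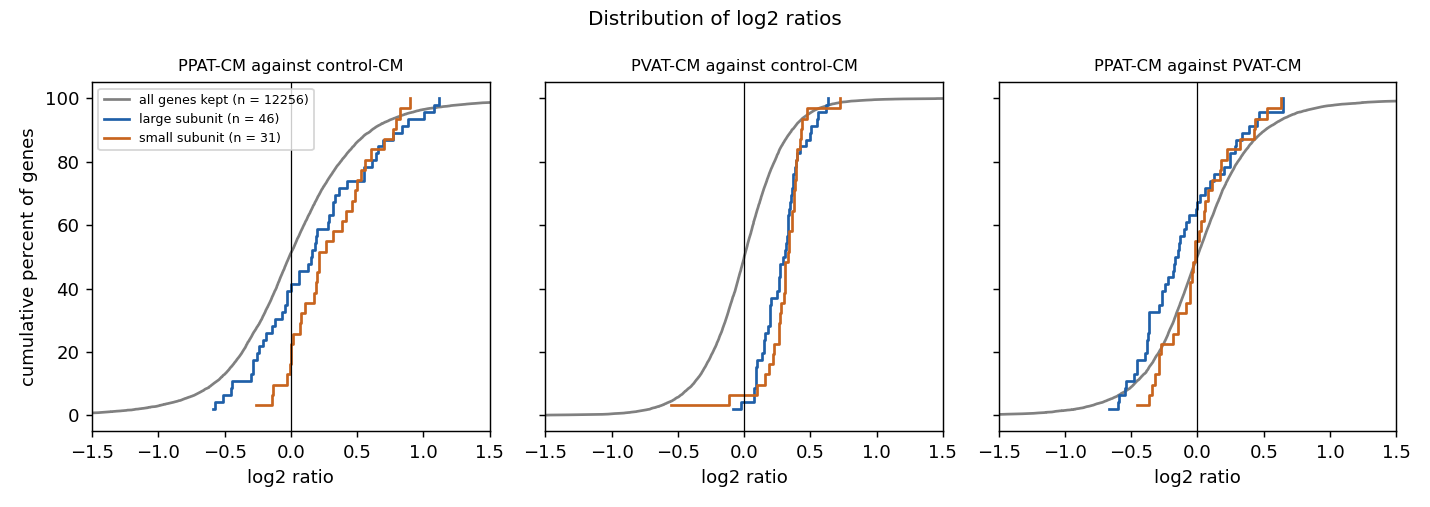
Cumulative percent of genes by log2 ratio of TMM-scaled counts in the 3 comparisons, for the 46 large subunit genes (blue), the 31 small subunit genes (orange) and the 12256 genes kept (grey). In PVAT-CM over control-CM both subunits are steep and lie to the right of grey, with medians of 0.30 and 0.33. In PPAT-CM over control-CM they are broader, and so is grey.

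Members were also grouped by their place in the ribosome, from textbook structure. The P stalk, which recruits translation factors, varied little: RPLP0, its base, had 2331, 2671 and 2286 CPM in control-CM, then PVAT-CM, then PPAT-CM. RPLP1 had 1287, 1470 and 1463 CPM and RPLP2 had 824, 1009 and 939, both acidic arms of the stalk. All 3 were higher in PVAT-CM than in control-CM, by 1.15-fold (1.13 to 1.16) and 1.14-fold (1.12 to 1.17) for RPLP0 and RPLP1, and RPLP2 in control-CM was at 0.817 of its PVAT-CM level (0.797 to 0.837). In PPAT-CM against control-CM the ratios were 0.981 (0.967 to 0.995) for RPLP0, 1.14 (1.12 to 1.16) for RPLP1 and 1.14 (1.11 to 1.17) for RPLP2.

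RPL5 and RPL11, which carry the 5S rRNA and bind MDM2 when ribosome assembly is disturbed, parted in PPAT-CM. RPL5 had 1021 CPM in control-CM, 1132 in PVAT-CM, then 926 in PPAT-CM, and RPL11 had 432, 581 and 633. The ratios of PPAT-CM to control-CM were 0.906 (0.887 to 0.926) for RPL5 and 1.46 (1.42 to 1.51) for RPL11. Both were higher in PVAT-CM than in control-CM, at 1.11 (1.08 to 1.13) and 1.34 (1.3 to 1.39).

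The 9 proteins that line the exit tunnel or its mouth (RPL4, RPL17, RPL19, RPL22, RPL23A, RPL26, RPL31, RPL35 and RPL39) had a median log2 ratio of -0.21 in PPAT-CM against control-CM and 0.20 in PVAT-CM against control-CM. In the first of these 4 of the 9 ratios were above 1. RPL23A, where the signal recognition particle docks, had the highest, with 364, 516 and 653 CPM and a ratio of PPAT-CM to control-CM of 1.79 (1.74 to 1.85). RPL17 followed at 1.47 (1.23 to 1.75), on its small counts. RPL19 went the other way, at 0.837 (0.824 to 0.849), and RPL39, within the tunnel, was at 1.11 (1.08 to 1.14). RPL4, whose loop reaches into the tunnel, had a ratio of 0.848 (0.838 to 0.858).

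In the small subunit, RPS2, RPS3 and RPS9 are among the proteins of the mRNA entry channel and were chosen after their values were seen. Their ratios of PPAT-CM to control-CM lay near each other, at 1.47 (1.45 to 1.49), 1.38 (1.34 to 1.41) and 1.4 (1.36 to 1.44). FAU, a ribosomal protein outside the name rule, went the other way in that comparison, at 0.715 (0.692 to 0.739). Whether the proteins of the channel moved together was not tested. The 14 head proteins had a median log2 ratio of 0.20 in that comparison and 0.36 in PVAT-CM against control-CM. RPS6, the substrate of the S6 kinases, had 2566, 3181 and 2600 CPM in control-CM, then PVAT-CM, then PPAT-CM, with the highest level in PVAT-CM. Its ratio of PPAT-CM to control-CM was 1.01 (1.0 to 1.03). RPS19, the gene most often mutated in Diamond-Blackfan anaemia, was also highest in PVAT-CM, with 569, 683 and 557 CPM. So was RPS24, with a ratio of PPAT-CM to control-CM of 0.997 (0.981 to 1.01) and of PVAT-CM to control-CM of 1.2 (1.19 to 1.22).

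RPS14, whose loss underlies the anaemia of the 5q- syndrome, had 855, 1144 and 1233 CPM and was 1.44-fold higher in PPAT-CM than in control-CM (1.41 to 1.47). RPS4X, the X-linked form of a protein that also has a Y-linked copy, was 1.2-fold higher (1.18 to 1.23), and RPSA, which also serves as a laminin receptor, 1.08-fold (1.05 to 1.1). Among factors of the decoding and tRNA sites, RPS23 was 1.74-fold higher (1.68 to 1.8), and RPL10, which joins the large subunit late, 1.62-fold (1.58 to 1.66). RPL36A, near the site where tRNA exits, was at 1.71 with a wide interval (1.34 to 2.2) because of its small count.

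Features that the rule did not use were set against the ratios as descriptions over members, which share libraries and scaling. The level per kilobase of coding sequence in PVAT-CM, a library outside the contrast, had a Spearman rho of -0.39 with the log2 ratio of PPAT-CM to control-CM over 77 members, and of -0.45 over the 72 without overlapping annotation. Pearson's r was weaker, at -0.20 and -0.39, and RPL41, highest on both measures, ran against the trend. Length of the principal transcript (rho -0.12), coding length (-0.06) and GC content (-0.10) had weak relations with the same ratio. The length of all annotated exons together had a rho of -0.25, and -0.28 over the 72 members. The 18 members with a principal transcript over 2000 bases had a median log2 ratio of 0.03 and the 59 others 0.21. The 28 members that hold a snoRNA gene within their borders had a median log2 ratio of 0.30 in PPAT-CM against control-CM and the 49 others 0.13. At least 1.5-fold higher were 6 (21.4%) and 10 (20.4%) of them, nearly the same share, beside 10.9% of all genes. In PVAT-CM against control-CM these medians were 0.33 and 0.27.

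**Figure D5:**
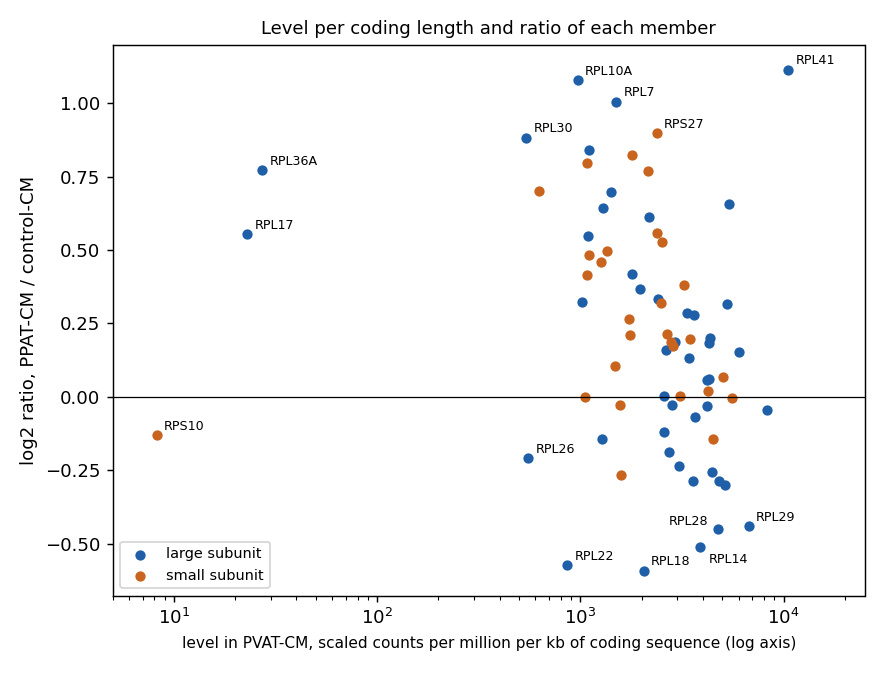
Log2 ratio of PPAT-CM to control-CM against the level in PVAT-CM (scaled CPM per kilobase of coding sequence, log axis) for 75 of the 77 members, large subunit in blue and small in orange. RPL41 lies at the upper right, and RPS10, RPL17 and RPL36A lie at low levels, with RPS10 lowest.

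Genes that act with these proteins were read from lists. FAU and RACK1 are cytosolic ribosomal proteins outside the name rule, and neither passed 1.5-fold against control-CM in either adipose medium. FAU, fused to a ubiquitin-like protein, was 1.4-fold lower in PPAT-CM than in control-CM and had a ratio of PPAT-CM to PVAT-CM of 0.645. Of 8 paralogues 6 were measured, and RPS27L, a p53 target, was the single one past 1.5-fold in PPAT-CM against control-CM, 1.61-fold lower with 4836, 5026 and 3742 counts. That makes 16.7% of the 6 lower and 0 higher, beside 9.96% and 10.9% of all genes. RPS27 itself was 1.86-fold higher in the same comparison. RPL22L1, the paralogue of RPL22, had 4254, 4860 and 6543 counts and a ratio of 1.23 (1.19 to 1.28), where RPL22 was 1.49-fold lower.

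Of 27 translation factors and other genes with TOP mRNAs, 26 were measured, and in PPAT-CM against control-CM 4 were at least 1.5-fold higher and 1 lower, with a median log2 ratio of 0.31. These are 15.4% and 3.85% of the list, beside 10.9% and 9.96% of all genes. EIF3L, a subunit of initiation factor eIF3, was 2.28-fold higher (2.01 to 2.59), with 341, 441 and 968 counts. VIM, the intermediate filament vimentin, was 3.27-fold lower, with 653, 409 and 249 counts. In PVAT-CM against control-CM 1 gene was higher and 1 lower, 3.85% each way beside 2.9% and 3.85% of all genes, with a median of 0.22, and EEF1B2, an exchange factor of elongation, was the higher one at 1.58-fold (1.49 to 1.68). VIM was the lower one, at a ratio of 0.658 (0.58 to 0.746).

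Of 36 genes of ribosome assembly and RNA polymerase I, 35 were measured, and in PPAT-CM against control-CM 3 were at least 1.5-fold higher and 0 lower, with a median log2 ratio of 0.06. The 8.57% that were higher lie under the 10.9% of all genes, and 9.96% of all genes were lower. NHP2, a core protein of box H/ACA particles, was 2.24-fold higher (2.05 to 2.46), and PES1, needed for large subunit maturation, 1.81-fold (1.65 to 1.98). In PVAT-CM against control-CM 0 passed in either direction, where 2.9% of all genes were higher and 3.85% lower, and the median was 0.10. Of the 8 dedicated chaperones of ribosomal proteins, GRWD1, which escorts RPL3, was 1.99-fold higher in PPAT-CM (1.6 to 2.5), and the list's median was 0.21.

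Of 17 genes that control ribosomal protein mRNAs or sense ribosomal proteins, all were measured, and in PPAT-CM against control-CM 1 was higher and 1 lower, with a median of -0.05. That is 5.88% each way, under the 10.9% and 9.96% of all genes. MYC, which drives transcription of ribosome genes, counted 1800, 1987 and 3905 across the libraries and was 1.74-fold higher (1.65 to 1.84). MDM2, the ligase that RPL5 and RPL11 bind, had 2336, 2502 and 1872 counts and was 1.55-fold lower. MTOR and LARP1 had ratios of 0.835 (0.76 to 0.918) and 0.865 (0.834 to 0.898). In PVAT-CM against control-CM 0 of the 17 passed in either direction, where 2.9% of all genes were higher and 3.85% lower.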

How the data were processed

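The values deposited by the authors are raw counts, whole numbers with 1 column per library. The submitters' processing notes name HISAT2 and featureCounts, with FastQC, Trimmomatic and edgeR, and the build GRCh38. Versions, settings and strand mode were not given in the sources used here. Rows were joined to GENCODE 29 for position and length (58611 of 58884 matched). Counts were scaled with TMM factors (edgeR 4.0.16 in R 4.3.3) over genes with a mean count of at least 50. Ratios of scaled counts carry 95% exact conditional binomial intervals, and log2 ratios of lists and members use a pseudocount of 0.5. Tables were made with Python 3.11.15, numpy 2.4.6, pandas 2.3.3 and scipy 1.17.1, and the steps were tested on simulated data. With 1 library per medium edgeR has no residual degrees of freedom.

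The members, gene lists and role groups were chosen with earlier results of these data known. Members named were the 5 highest and 5 lowest ratios of each comparison, a fixed set of well-known proteins and the 3 highest and 3 lowest levels per length. Of each other list, up to 2 genes past 1.5-fold were named first. RPL23A, RPS23, RPL10, RPL4, RPS2, RPS3, RPS9, MTOR, LARP1 and other genes beyond this rule were chosen after their values were seen. A few genes within the counts are not reported here by name or drawn as points. Windows come from the RefSeq promoter table.

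Alternatives were DESeq2 1.42.0 size factors, total counts, upper quartile factors, factors without mitochondrial or ribosomal protein genes, other count filters, a pseudocount of 5, pseudogene counts added, other thresholds, intervals wholly past 1.5-fold, and means in place of medians. Coding length, and leaving out the members with overlapping annotation, were added after seeing the data.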

Additional observations from a re-analysis of the deposited data

How the results depend on the processing

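In PPAT-CM against control-CM the count of members at least 1.5-fold higher was 31 with total counts, 28 with the threshold lowered to 0.32 on the log2 scale and 3 at 2-fold. The count lower went from 1 to 0 with DESeq2 size factors, total counts, mitochondrial genes left out, a mean count of at least 10 or 1000, no filter, 2-fold, or the interval wholly past 1.5-fold, and to 5 with the lowered threshold. The median was 0.47 with total counts, 0.23 with no filter and 0.22 as a mean, and the large minus small difference -0.12 at a mean count of at least 1000 and -0.12 as a mean. In PVAT-CM against control-CM the higher count was 10 with total counts, 37 with the lowered threshold, 0 at 2-fold and 1 by interval, the lower count 1 with the lowered threshold, and the median 0.46 with total counts. In PPAT-CM against PVAT-CM the higher count was 5 with total counts, 11 with the lowered threshold, 0 at 2-fold and 1 by interval, at a mean count of at least 1000, or without the members with overlapping annotation. The lower count was 0 with total counts, 18 with the lowered threshold, 0 at 2-fold and 1 by interval, at a mean count of at least 1000, or with no filter. The median of that comparison reversed to 0.045 with total counts. Thresholds, and filters strict enough to drop members, change which genes can be called by construction. Looser filters keep the same members and change only the TMM factors. A change of factors shifts all log2 ratios of a comparison by nearly the same amount. Why the factors differ between scalings was not tested.

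Shares with pseudogene counts added were 11.03%, 12.92% and 12.01% in control-CM, then PVAT-CM, then PPAT-CM. Median levels per kilobase of merged exons were 270, 331 and 314, and per kilobase of coding sequence 2012, 2525 and 2404. The other 126 values of these summaries stayed within their limits, and of the values for named members 901 did and 137 moved, 86 of them with total counts. No paired analysis was possible because each medium has 1 library. Depth limits members with small counts, such as RPS10, RPL36A and RPL17.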

Other observations

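The human genome carries many processed pseudogenes of these genes, copies of spliced mRNA put back into the genome, and reads from parent and copy can be hard to tell apart. The table had 1132 rows named as pseudogenes of 76 members, of which 795 were at 0 in all 3 libraries and 26 passed the count filter. Together the pseudogene rows held 5451 counts in control-CM, 5408 in PVAT-CM, then 5869 in PPAT-CM, which was 0.434%, 0.376% and 0.342% of the members' counts. Some copies had ratios of PPAT-CM to control-CM unlike those of their parents. RPL13P12 had 225, 227 and 109 counts and a ratio of 0.389 (0.306 to 0.491), where RPL13 was at 0.812 (0.802 to 0.823). RPL3P4 had 247, 297 and 226 counts and a ratio of 0.735 (0.611 to 0.883), where RPL3 was at 1.53 (1.51 to 1.55). RPL41P5, with 32, 50 and 88 counts, was at 2.21 (1.46 to 3.42), and its parent RPL41 at 2.17 (2.11 to 2.22). These copies were chosen after their values were seen, and how reads were divided between parent and copy was not tested.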
